A study of Mus musculus with 3 samples.

Results

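The *Ms4a* genes examined here were 6 members of 1 gene family that macrophages express, *Ms4a4a*, *Ms4a4c*, *Ms4a6b*, *Ms4a6c*, *Ms4a6d* and *Ms4a7*. They were taken by symbol from the 32285 genes of the count tables, which hold 19 genes with an *Ms4a* symbol. Each of the 6 symbols matched 1 row, and all 6 are described. They were counted by droplet-based single-cell RNA sequencing in bone marrow-derived macrophages (BMDMs). These were grown for some days from marrow of female C3H/HeN mice aged 6 to 8 weeks. The medium held L929-cell supernatant, a source of the growth factor CSF1. The authors' culture methods describe pooled marrow, while their single-cell methods describe cells of 3 mice that were treated separately. Ctrl cells received buffer alone, while LP1 and LP4 cells were exposed to *Bb*LP at 1 µg/mL, LP1 for 1 hour and LP4 for 4 hours. The authors' methods place the collection of Ctrl cells at 4 hours. LP1 thus differs from Ctrl in time of collection as well as in *Bb*LP. *Bb*LP are lipoproteins purified from *Borrelia burgdorferi*, the Lyme disease spirochete, and are sensed mainly by TLR2. The cells of 3 wells were pooled into 1 library for each condition. No condition therefore has a replicate, a difference between conditions cannot be told apart from a difference between libraries, and no test between conditions was made. All intervals are at the 95% level and cover counting error only.

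MS4A proteins are small membrane proteins that cross the membrane several times and lie near or within receptor complexes. The best known are CD20 of B cells (*Ms4a1*) and the beta chain of the high-affinity IgE receptor of mast cells and basophils (*Ms4a2*). Several other members are expressed by macrophages and microglia, where they are used as markers and are thought to tune signalling of neighbouring receptors. In humans, variation near the macrophage members is associated with Alzheimer's disease and with soluble TREM2 in cerebrospinal fluid. *Ms4a7* is a common marker of macrophages at the borders of the brain, and *Ms4a4a* is the mouse counterpart of a human gene of tissue macrophages. *Ms4a6d* has been tied to VSIG4 and to MHC class II signalling in mouse macrophages. *Ms4a4c*, *Ms4a6b* and *Ms4a6c* belong to a group that multiplied in rodents, and less is known of what they do.

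All 19 *Ms4a* genes of the annotation (GENCODE vM21 on GRCm38, the build mm10 of the counts) lie on chromosome 19 within 679 kb. The 6 members fall in a stretch of 284 kb, chr19:11321039-11604849, with only *Ms4a4b* and *Ms4a4d* among them. In order along the chromosome they are *Ms4a7* (chr19:11321039-11336146, minus strand), *Ms4a4a* (chr19:11375523-11392790, plus strand), *Ms4a4c* (chr19:11404770-11427246, plus strand), *Ms4a6c* (chr19:11469366-11482192, plus strand), *Ms4a6b* (chr19:11516512-11531256, plus strand) and *Ms4a6d* (chr19:11586604-11604849, minus strand). Their identifiers in the tables are ENSMUSG00000024672, ENSMUSG00000101389, ENSMUSG00000024675, ENSMUSG00000079419, ENSMUSG00000024677 and ENSMUSG00000024679, in that order.

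The 250 bases before a RefSeq start site (GRCm38.p6, from the C57BL/6J reference) were at hand for 5 of the 6 members. Those of *Ms4a7*, *Ms4a4a* and *Ms4a4c* are shown as examples of the family's start sites. Each runs 5′ to 3′ toward the start site, and capitals mark matches on either strand to GAAANNGAA, the core of the element that interferon-activated factors bind, or to the kB element bound by NF-kB.

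Ms4a7 (chr19:11336147-11336396, minus strand): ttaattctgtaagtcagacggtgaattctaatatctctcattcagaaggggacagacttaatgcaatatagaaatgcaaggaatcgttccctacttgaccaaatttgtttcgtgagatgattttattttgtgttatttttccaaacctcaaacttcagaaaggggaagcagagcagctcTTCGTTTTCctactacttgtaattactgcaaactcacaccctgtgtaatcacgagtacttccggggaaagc
Ms4a4a (chr19:11375238-11375487, plus strand): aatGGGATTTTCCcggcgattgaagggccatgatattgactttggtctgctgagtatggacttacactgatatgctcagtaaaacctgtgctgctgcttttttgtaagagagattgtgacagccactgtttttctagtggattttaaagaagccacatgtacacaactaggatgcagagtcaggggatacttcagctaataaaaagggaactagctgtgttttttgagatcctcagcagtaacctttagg
Ms4a4c (chr19:11407411-11407660, plus strand): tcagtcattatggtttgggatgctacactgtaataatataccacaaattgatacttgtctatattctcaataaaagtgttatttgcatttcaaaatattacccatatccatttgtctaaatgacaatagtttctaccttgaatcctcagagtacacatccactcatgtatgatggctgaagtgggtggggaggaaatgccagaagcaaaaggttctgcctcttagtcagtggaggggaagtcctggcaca

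The window of *Ms4a7* holds 1 match to GAAANNGAA, and a second start site of *Ms4a7* (chr19:11334696-11334945) holds another. Of all 32851 windows of the same length in the table, 7.13% hold it. *Ms4a4a* has a kB match 247 bases before its start, an element found in 3.90% of all windows. The only other match in the windows of these 3 genes was 1 to TGANTCA, the element of AP-1, at the second start site of *Ms4a7*, and 6.75% of all windows hold that. TTCNNNGAA, GAGGAAG and TTGCNNAA, read by STAT, PU.1 and C/EBP factors, had no match in these windows and stand in 7.02%, 10.6% and 9.56% of all windows. A match of letters is a description of the sequence and shows no binding, and with windows given for 3 of the 6 members no relation between these elements and the members' levels can be read from them.

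The kinship of the genes touches the counts. Of all stretches of 31 bases in the last 500 bases of their transcripts, the end from which the reads were made, 20.8% of those of *Ms4a4c* also occur in another *Ms4a* gene, mostly *Ms4a4b*. The share was 12.9% for *Ms4a6c* and 11.4% for *Ms4a6b*, mostly with each other, and 0% for *Ms4a4a*, *Ms4a6d* and *Ms4a7*. Reads that fit more than 1 gene equally well are not counted by Cell Ranger, so the levels of *Ms4a4c*, *Ms4a6b* and *Ms4a6c* are the less certain ones.

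Cells with more than 500 UMIs (unique molecular identifiers, 1 per captured transcript), over 500 genes and less than 5% of UMIs from mitochondrial genes were kept, 15806 of 16281. These were 6071 of 6123 barcodes in Ctrl, 5065 of 5119 in LP1 and 4670 of 5039 in LP4, with medians of 5133, 9343 and 11784 UMIs per cell. The sums over kept cells were 35688939, 52475723 and 61402275 UMIs. Between 3 and 9 kept barcodes were shared by a pair of libraries. All 8 macrophage markers were present in every library, summing to between 10587 and 11688 CPM (counts per 1000000 UMIs), and T cell markers summed to at most 0.112 CPM. Monocyte markers summed to 97.8 CPM in Ctrl, 91.3 after 1 hour and 575 after 4 hours, of which *Vcan* had 22.4, 17.2 and 375 CPM and *F13a1* 40.4, 31.8 and 156 CPM. The other 5 monocyte markers stood at 26.5 CPM or less in every library. Neutrophil markers summed to between 457 and 739 CPM.

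Among Ctrl BMDMs the family was dominated by *Ms4a7*. Its level in Ctrl was 396 CPM (95% exact Poisson interval 390 to 403), which was 62.4% of all UMIs of the 6 members and rank 369 among all genes. *Ms4a6c* followed with 84.3 CPM, *Ms4a6d* with 66.3, *Ms4a4a* with 43.0, *Ms4a6b* with 36.6 and *Ms4a4c* with 8.43. The counting intervals of neighbours in this order did not overlap in Ctrl. Since 1 end of each transcript was counted, these CPM were not divided by gene length. After 1 hour of *Bb*LP *Ms4a6b* at 35.8 CPM stood above *Ms4a4a* at 26.4, with intervals apart. *Ms4a6d* at 84.4 CPM and *Ms4a6c* at 81.0 had overlapping intervals, and *Ms4a7* and *Ms4a4c* kept the first and the last place. After 4 hours it was another: *Ms4a6d* led with 385 CPM and *Ms4a7* followed with 364. *Ms4a4a* at 196 CPM and *Ms4a6c* at 193 could not be told apart by their intervals, and *Ms4a6b* at 55.8 and *Ms4a4c* at 45.0 came last. The plot of levels by library shows this reordering.

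**Figure D1:**
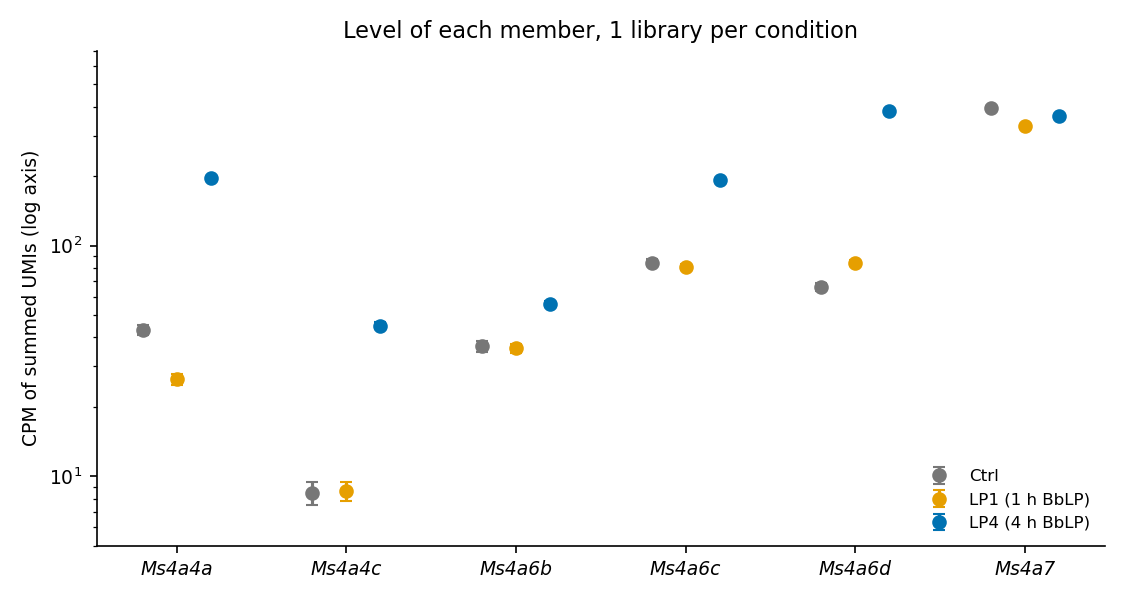
Level of the 6 members in CPM of summed UMIs (log axis), with 1 point for each library (Ctrl, LP1 and LP4) and bars for the 95% exact Poisson interval. *Ms4a4a*, *Ms4a4c*, *Ms4a6b*, *Ms4a6c* and *Ms4a6d* stand highest in LP4, while *Ms4a7* lies between 329 and 396 CPM in all 3 libraries.

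Summed over the family, the 6 members reached 635 CPM in Ctrl, 566 after 1 hour and 1239 after 4 hours. LP4 was thus 1.95 times Ctrl, a log2 ratio of 0.97 (95% interval 0.94 to 0.99). The makeup of that sum differed as well. *Ms4a7* made up 62.4% of it in Ctrl, 58.2% after 1 hour and 29.4% after 4 hours, and *Ms4a6d* 10.4%, 14.9% and 31.1%. *Ms4a4a* went from 6.77% in Ctrl to 15.8% in LP4, whereas *Ms4a6b* went from 5.76% to 4.50%.

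A gene was called higher or lower where its CPM differed at least 2-fold between libraries with at least 10 CPM in the higher one. After 4 hours of *Bb*LP, 4 of the 6 members were higher than in Ctrl and 0 were lower. Among the 8019 genes that could be called, 10.6% were higher and 9.91% lower. The median log2 ratio of the 6 members was 1.69, beside -0.07 for all genes tested. Against LP1, LP4 had the same counts, 4 of 6 higher and 0 lower, where 8.75% of all genes tested were higher and 7.55% lower. These comparisons share the LP4 library.

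*Ms4a6d* had the largest ratio of LP4 to Ctrl. It was counted at 2366 UMIs in Ctrl, 4429 after 1 hour and 23657 after 4 hours, or 66.3, 84.4 and 385 CPM. LP4 was 5.81 times Ctrl, a log2 ratio of 2.54 (95% interval 2.48 to 2.60). It was also the only member whose interval for LP1 over Ctrl lay above 0, at 1.27 times Ctrl (log2 ratio 0.35, 95% interval 0.28 to 0.42), which is below the 2-fold limit.

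*Ms4a4c* was the least expressed member in every library. It had 301 UMIs in Ctrl (8.43 CPM), 451 after 1 hour (8.59 CPM) and 2761 after 4 hours (45.0 CPM). LP4 was 5.33 times Ctrl (log2 ratio 2.41, 95% interval 2.24 to 2.59), and LP1 lay within counting error of Ctrl at 0.03 (95% interval -0.19 to 0.24). With under 10 CPM in both, LP1 against Ctrl was not called for this gene.

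*Ms4a4a* took opposite directions at the 2 times. It stood at 43.0 CPM in Ctrl (1533 UMIs), 26.4 after 1 hour (1383 UMIs) and 196 after 4 hours (12017 UMIs). The log2 ratio of LP1 over Ctrl was -0.70 (95% interval -0.81 to -0.60), under the 2-fold limit, at percentile 1.48 of all genes tested. LP4 was 4.56 times Ctrl, a log2 ratio of 2.19 (95% interval 2.11 to 2.27), and 7.43 times LP1, the largest ratio of any member in any comparison.

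*Ms4a6c* was at 84.3 CPM in Ctrl, 81.0 after 1 hour and 193 after 4 hours. LP4 was 2.29 times Ctrl (log2 ratio 1.20, 95% interval 1.14 to 1.26). Its neighbour *Ms4a6b* stood at 36.6, 35.8 and 55.8 CPM, with LP4 over Ctrl having a log2 ratio of 0.61 (95% interval 0.52 to 0.70), which did not reach 2-fold. Both thus had their highest level in LP4, and for both LP1 lay within counting error of Ctrl.

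*Ms4a7*, the most abundant member in Ctrl, had 396 CPM there, 329 after 1 hour and 364 after 4 hours. LP4 over Ctrl gave a log2 ratio of -0.12 (95% interval -0.15 to -0.09), and this sign turned with the scaling, to 0.05 under TMM and 0.08 under median-of-ratios scaling. It lay in the middle of all genes tested, at percentile 47.3. LP1 over Ctrl was -0.27 (95% interval -0.30 to -0.23). Those scalings moved the median of all genes in LP4 over Ctrl up by 0.17 and 0.21, and the other members kept their direction and their calls under both.

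After 1 hour, 0 of the 5 members that could be called were past 2-fold in either direction. Across the 7747 genes tested, 0.697% were higher and 0.465% lower. The members' median log2 ratio was -0.06 and that of all genes -0.02. The plot of ratios sets the members among all genes.

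**Figure D2:**
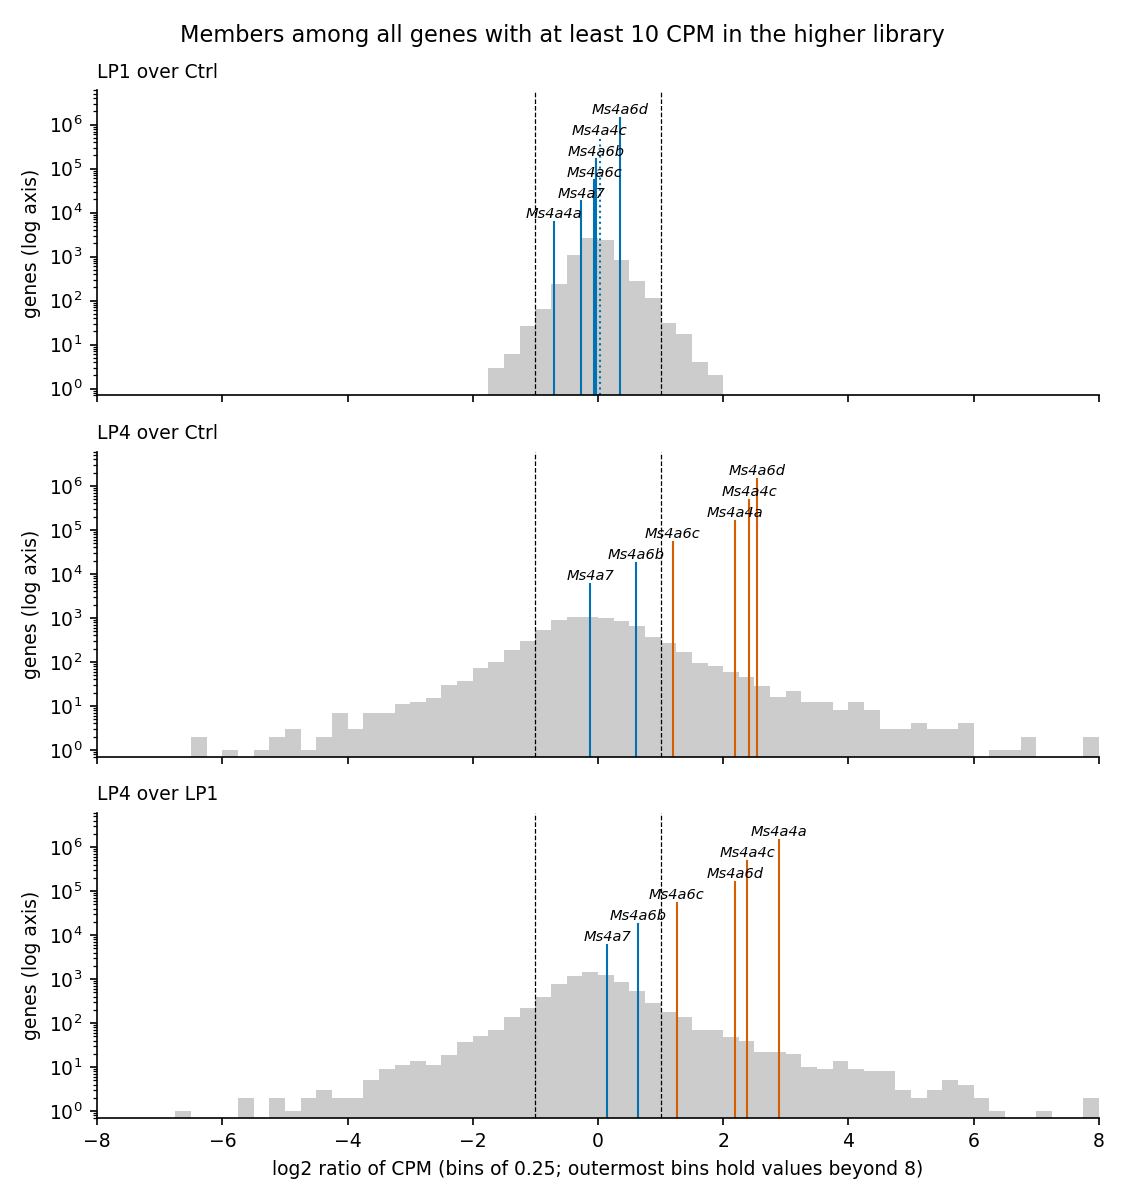
Log2 ratio of CPM for each pair of libraries: grey bars give the number of genes in bins of 0.25 (log axis) among those that reach 10 CPM in either library, and vertical lines mark the 6 members, orange where called higher and dotted where under 10 CPM. The height of a line has no meaning. In both comparisons with LP4, 4 members lie to the right of the dashed 2-fold line, and in LP1 over Ctrl all lie between the dashed lines.

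The other 13 *Ms4a* genes were scarce. *Ms4a14*, next to *Ms4a7*, was the most abundant and in Ctrl and LP1 stood above *Ms4a4c*, with 18.2 CPM in Ctrl, 15.2 after 1 hour and 27.3 after 4 hours (LP4 over Ctrl log2 ratio 0.58, 95% interval 0.45 to 0.71). The other 12 were under 10 CPM in every library, and *Ms4a10* and *Ms4a18* had 0 UMIs in all. *Ms4a4b*, a gene known from T cells, had 36 UMIs in Ctrl, 38 after 1 hour and 480 after 4 hours, LP4 over Ctrl having a log2 ratio of 2.95 (95% interval 2.46 to 3.49). *Ms4a4d* had 6, 0 and 99 UMIs. Both lie between members on the chromosome, and *Ms4a4b* shares transcript sequence with *Ms4a4c*. Of the LP4 cells with a UMI of *Ms4a4b*, 47.7% also had one of *Ms4a4c*, against 26.1% of all LP4 cells. For LP4 cells with a UMI of *Ms4a14* or *Ms4a4d* this share was 35.4% and 35.1%. Cells were taken at their own depth here, and deeper cells are more likely to hold both genes of any pair. *Ms4a1* (CD20) had between 12 and 40 UMIs and *Ms4a2* at most 1.

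Genes described as acting with MS4A proteins were looked up as well. Of 9 such genes, including *Syk*, *Card9*, *Trem2*, *Tyrobp* and *Vsig4*, 7 could be called in LP4 over Ctrl, with 0 higher and 1 lower. *Card9* and *Vsig4* were too low to be called. Beside this and the other lists, 10.6% of all genes tested were higher and 9.91% lower. The lower gene was *Nlrp3*, the sensor of an inflammasome, with a log2 ratio of -1.54. *Tyrobp*, the signalling adaptor of TREM2, had -0.95, and the MHC class II genes *H2-Aa* and *H2-Ab1* had 0.55 and 0.25. The median of the 7 was -0.75, beside -0.07 for all genes tested. Of 9 interferon-stimulated genes, 8 were higher, with a median of 3.66. *Ifit1* and *Cmpk2* led them at 5.67 and 5.54, and *Irf7* at 0.40 was the exception. Of 10 genes of resident-type macrophages, 9 could be called, with 0 higher and 2 lower: the complement genes *C1qb* at -1.08 and *C1qa* at -1.40. *Mrc1* and *Selenop* had the highest ratios of this list, at 0.48 and 0.12, and the median of the 9 was -0.66. Of 10 monocyte genes, 6 could be called, with 3 higher and 0 lower and a median of 0.57. *Vcan* had 4.07 and *F13a1* 1.95, while *Ccr2* had -0.57 and *Cx3cr1* -0.91. The members' range from -0.12 to 2.54 thus lay below most of the interferon-stimulated genes.

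Depth per cell differed between the libraries, so each cell was thinned to 2000 UMIs before cells were counted, and 122, 13 and 45 cells of Ctrl, LP1 and LP4 were too shallow for this. *Ms4a6d* was then seen in 13% of cells in Ctrl (95% exact binomial interval 12.2 to 13.9), in 16.3% after 1 hour (15.3 to 17.3) and in 50.8% after 4 hours (49.4 to 52.3). *Ms4a4a* was seen in 8.77%, 5.72% and 29.7% of cells, and *Ms4a6c* in 16.3%, 15.3% and 30.6%. These 3 genes were thus found in a larger share of LP4 cells than of Ctrl cells. *Ms4a4c* was seen in 1.51%, 1.54% and 7.33%. *Ms4a6b* had 7.93%, 6.99% and 10.6%. *Ms4a7* was the most widespread member in Ctrl and LP1, at 51.6% (50.3 to 52.8) and 45.0% (43.7 to 46.4), and in LP4 it had 48.6% (47.2 to 50.1). Without thinning, the LP4 shares were 91.6% for *Ms4a6d*, 88.0% for *Ms4a7*, 76.7% for *Ms4a6c*, 62.3% for *Ms4a4a*, 34.0% for *Ms4a6b* and 26.1% for *Ms4a4c*. The unthinned Ctrl shares were 29.6%, 77.4%, 31.9%, 17.8%, 15.7% and 2.78% in the same order.

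Free RNA can place a UMI in a cell that does not make it, so the same shares were taken in the neutrophil-like cells of the culture. After thinning these were 21 cells in Ctrl, 20 after 1 hour and 28 after 4 hours, with medians of 3947, 6220 and 9262 UMIs before thinning, beside 5194, 9353 and 11838 over all cells. *Ms4a4a*, *Ms4a4c*, *Ms4a6b* and *Ms4a7* were seen in 0 of them in every library, which allows shares of up to 14.3%, 15.0% and 10.7% by a floor of 3 counts. The exact binomial intervals of these shares reached 16.1%, 16.8% and 12.3%. *Ms4a6c* was seen in 1 such cell in Ctrl, and *Ms4a6d* in 1 in Ctrl and 1 in LP4 (3.57%, 0.0904 to 18.3). For *Ms4a7*, and for *Ms4a6d*, *Ms4a4a* and *Ms4a6c* in LP4, the interval over all cells lay above the exact interval in neutrophil-like cells. For *Ms4a4c*, *Ms4a6b* and the lower shares of the other members, so few cells at this thinned depth cannot tell expression from background. Without thinning, the neutrophil-like LP4 cells had 0 UMIs of *Ms4a4c* and of *Ms4a6b*, with an upper limit of 15.4 CPM for each. The levels over all LP4 cells lay above that limit, at 45.0 CPM (43.3 to 46.7) and 55.8 CPM (53.9 to 57.7). In Ctrl and LP1 the intervals of these genes in neutrophil-like and in all cells overlapped. So did those of *Ms4a6c* in Ctrl, where unthinned neutrophil-like cells had 7 UMIs, 66.9 CPM (26.9 to 138), beside 84.3 CPM over all cells. The interval of *Ms4a6c* in LP1 and LP4 neutrophil-like cells ended at 27.4 and 30.1 CPM, beside 81.0 and 193 over all cells.

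**Figure D3:**
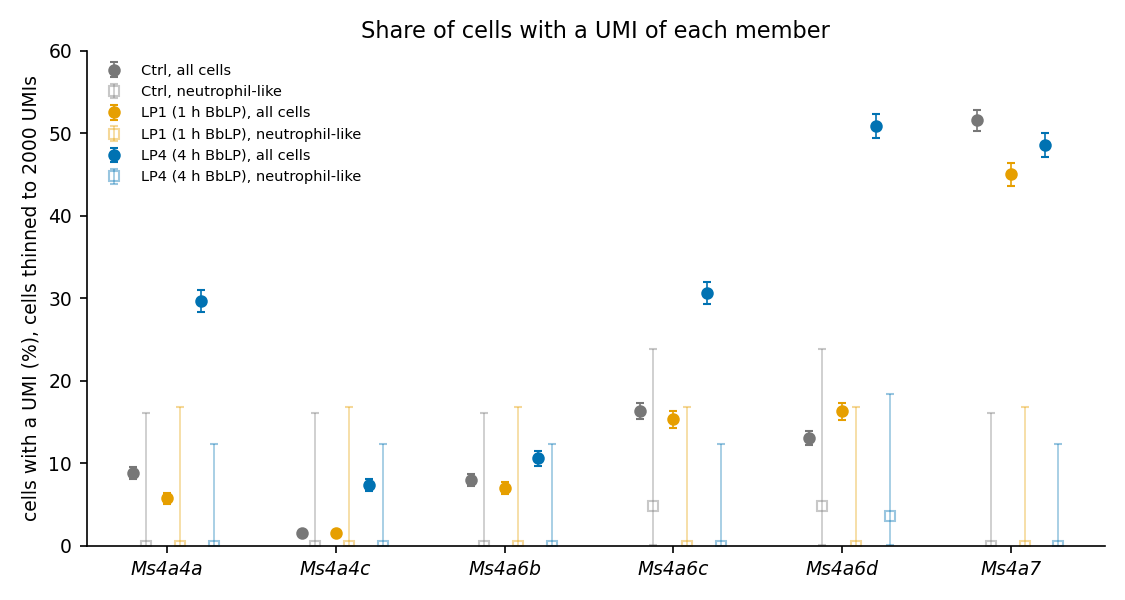
Share of cells with a UMI of each member (%) after thinning each cell to 2000 UMIs. Filled circles are all cells of a library, open squares its 20 to 28 neutrophil-like cells, and bars the 95% exact binomial intervals. *Ms4a6d* goes from 13% in Ctrl to 50.8% in LP4, while *Ms4a7* is between 45.0% and 51.6% in every library and at 0% in the neutrophil-like cells.

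Cells with UMIs of several members made up a larger share of LP4 than of Ctrl or LP1. At 2000 UMIs per cell, 34.9%, 39.4% and 16.0% of the cells in Ctrl, LP1 and LP4 had no UMI of any member. At least 3 of the 6 were seen in 7.67%, 6.20% and 27.3%, and all 6 in 2, 0 and 19 cells. In every library, each of the 15 pairs was seen together more often than the product of their shares. No interval was computed for this excess, and some values rest on few cells, as for *Ms4a4a* with *Ms4a4c* in LP1 (10 cells). The share of other gene pairs with such an excess was not computed, so nothing particular to the members can be read from it. The excess was smallest for *Ms4a6d* with *Ms4a7* in LP4, at 1.07 times. It was largest for *Ms4a4c* with *Ms4a6b*, at 4.06 times in Ctrl (29 cells), 4.95 times after 1 hour (27 cells) and 2.20 times after 4 hours (79 cells). Differences between kinds of cells enter these values, and they are descriptions of 3 libraries.

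*Ms4a4c* also stood out in how unevenly its UMIs were spread. At the cells' own depth, the 1% of cells richest in it held 64.1% of its UMIs in Ctrl, 62.1% after 1 hour and 20.3% after 4 hours. For the other members the same share of cells held between 5.29% (*Ms4a7*) and 16.7% (*Ms4a6b*) in Ctrl. A level so low in most cells makes such a share large by itself, yet single cells reached 16 UMIs in Ctrl and 29 in LP1 against a library mean of under 1. At 2000 UMIs per cell the variance of *Ms4a4c* was 2.04 times its mean in Ctrl, 2.56 after 1 hour and 1.65 after 4 hours. The next highest in Ctrl was *Ms4a7* at 1.51.

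To see whether the members differed among cells, the cells were clustered without any *Ms4a* gene and with each gene centred within its library. This gave 9 clusters, named A to I by size. By the markers among their 10 leading genes, E was cycling-like, G dendritic cell-like, H neutrophil-like and I stromal-like. A, B, C, D and F had 5 or 6 of the 8 macrophage markers in at least 50% of their cells but none among their leading genes, and are called by letter only. By the same count E had 6 and G 5. The 4 markers that named G were *H2-Eb1*, *H2-Aa*, *H2-Ab1* and *Cd74*. No other dendritic cell marker was among its leading genes, so the name rests on genes of MHC class II presentation alone. The leading genes of F included the DNA replication genes *Mcm3*, *Mcm4* and *Mcm6*, and those of A the monocyte marker *F13a1*. A to G were compared, each with 50 cells or more per library. Cluster A made up 36.0%, 32.6% and 38.3% of Ctrl, LP1 and LP4 cells. Its leading genes against all other cells were *Egr3*, *Ms4a6b*, *Apoe*, *F13a1*, *Nr4a3*, *Ms4a4a*, *Ifitm1*, *Slc9a9*, *Cd86* and *Zfp36l1*, so 2 of the 10 were members that had taken no part in the clustering. Cells are not replicates, and differences between clusters are descriptions.

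In Ctrl, every member was highest in cluster A, but the share of all genes highest there was not computed. For *Ms4a6c* the intervals in A (163 to 180 CPM) and in G (101 to 168 CPM) overlapped. Cells of A were also shallower, at a median of 0.77 times the median UMIs of their library. *Ms4a4c* ranged most, from 1.02 CPM in cluster D to 20.9 in A, a ratio of 20.5 that rests on 5 UMIs in D. *Ms4a6b* ranged from 6.32 CPM in D to 93.1 in A, a ratio of 14.7, and *Ms4a4a* from 8.76 in F to 108 in A, a ratio of 12.4. *Ms4a6c* and *Ms4a7* were less uneven, with ratios of 6.82 and 3.64 between A and D. *Ms4a6d* was the most even member, from 45.2 CPM in the cycling-like cluster E to 103 in A, a ratio of 2.27. Cluster A held 25.7% of all Ctrl UMIs but 65.5% of those of *Ms4a6b*, 65.0% of *Ms4a4a* and 63.8% of *Ms4a4c*, against 39.9% of *Ms4a6d*.

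In LP1 and LP4, *Ms4a4c* was highest in the dendritic cell-like cluster G, a group led by MHC class II genes, at 38.6 and 131 CPM. In Ctrl its intervals in A (18.1 to 24.1 CPM) and in G (7.09 to 32.3 CPM, on 8 UMIs) overlapped. *Ms4a6c* was highest in G in LP1 as well, at 178 CPM beside 171 in A, with overlapping intervals. The remaining members stayed highest in A. The ratio of highest to lowest cluster was smaller in LP4 than in Ctrl for each member, for instance 8.50 for *Ms4a6b*, 6.09 for *Ms4a4a*, 5.61 for *Ms4a4c*, 2.87 for *Ms4a6c* and 2.05 for *Ms4a6d*. The share of all genes with a smaller ratio in LP4 was not computed, so nothing particular to the members can be read from this. The lowest clusters of *Ms4a4c* and *Ms4a4a* held 5 and 10 UMIs in Ctrl, and 229 and 332 in LP4. For *Ms4a6d* the intervals of the log2 ratio overlapped, at 0.94 to 1.44 in Ctrl and 0.95 to 1.12 in LP4.

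**Figure D4:**
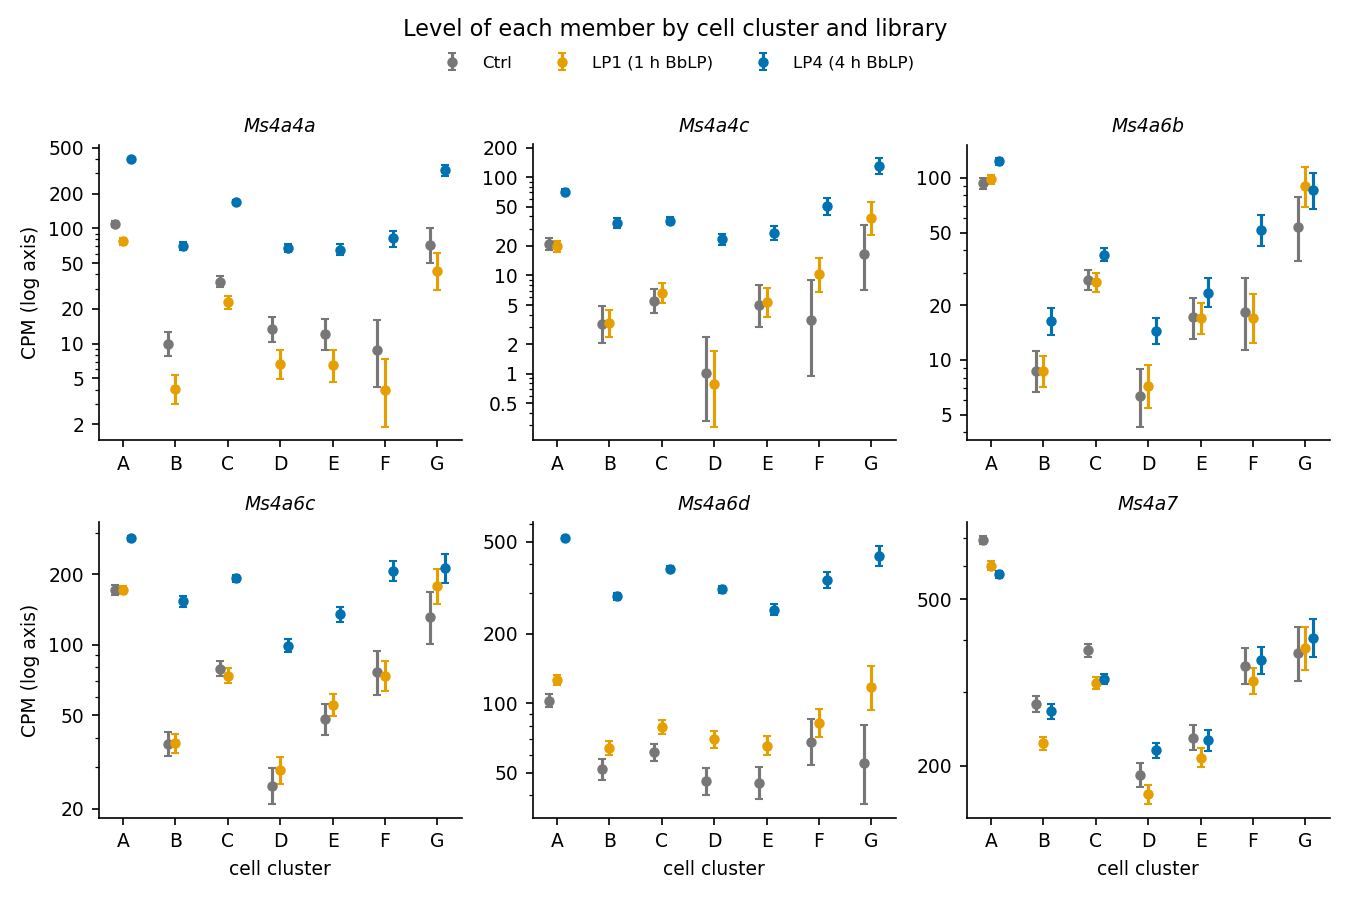
CPM of each member (log axis, a separate scale in each panel) in the 7 clusters compared, with 1 point for each library and bars for the 95% exact Poisson interval. E is cycling-like, G dendritic cell-like, and the others have no name. *Ms4a6d* in LP4 lies above Ctrl and LP1 in each cluster, and *Ms4a7* keeps near its Ctrl level in each.

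The differences between LP4 and Ctrl were present within clusters. *Ms4a6d* was past 2-fold in all 7, with log2 ratios from 2.33 in F to 2.98 in G, and *Ms4a4a* in all 7, from 1.87 in A to 3.22 in F. *Ms4a4c* was past 2-fold in all 7 as well, from 1.77 in A to 4.52 in D, the last on 5 UMIs in Ctrl (95% interval 3.28 to 6.16). *Ms4a6c* had log2 ratios from 0.69 in G and 0.73 in A to 2.02 in B, past 2-fold in 5 of 7. *Ms4a6b* was above 0 in all 7, with the interval above 0 in 6, and past 2-fold in D and F. For *Ms4a4a*, *Ms4a4c* and *Ms4a6b*, cluster A, which had the most in Ctrl, thus had the smallest ratio. *Ms4a7* lay between -0.27 in A and 0.19 in D, above 0 in 3 clusters and below in 4, with intervals apart from 0 in 1 and 2 of these. *Vcan* and *F13a1*, 2 of the 3 monocyte genes called higher in LP4, are noted above, and their part in these values was not tested.

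The smaller differences after 1 hour also ran through the clusters. *Ms4a4a* was lower in LP1 than in Ctrl in 7 of 7, from -0.50 in A to -1.30 in B, with the interval below 0 in 6. *Ms4a6d* was higher in 7 of 7, from 0.26 in F to 1.08 in G, with the interval above 0 in 6. *Ms4a7* was lower in 6 of 7. *Ms4a4c*, level over all cells, was higher in LP1 by 1.56 in F (26 UMIs against 4) and 1.23 in G (28 against 8), and the intervals of the other 5 clusters held 0. These intervals take UMIs as independent, yet the richest 1% of LP1 cells held 62.1% of the UMIs of *Ms4a4c*. They are thus too narrow for this gene, and its values in F and G may rest on few cells.

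The members also differed in how they went with the interferon-stimulated genes of a cell. The cells of each library were ordered by the share of their UMIs from the 9 genes of that list, and the cells with the most were set against as many with the least, each group being 1 of 3 equal parts. In LP4 (1556 cells per group), *Ms4a4c* stood at 84.9 CPM in the highest part and 18.5 in the lowest, a ratio of 4.58 (log2 2.20, 95% interval 2.03 to 2.36). *Ms4a6b* had 88.5 and 37.8 CPM, a ratio of 2.34, and *Ms4a4a* 283 and 145 CPM, a ratio of 1.96. *Ms4a6c*, *Ms4a6d* and *Ms4a7* had ratios of 1.65, 1.62 and 1.59. *Ms4a6d*, which differed most between LP4 and Ctrl, was thus among those that varied least with the list inside LP4. The list itself had 18484 CPM in the highest part and 3932 in the lowest, so the lowest LP4 part also expressed these genes. Cluster A made up 48.8% of the highest and 37.7% of the lowest part, and median depth was 11238 and 11186 UMIs. Within cluster A alone the ratio of *Ms4a4c* was 5.60, and in all other clusters 3.63. For *Ms4a6b* these ratios were 1.88 and 2.05, and for *Ms4a4a* 1.43 and 2.15.

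The pattern of *Ms4a4c* was also present in the Ctrl and LP1 libraries. In Ctrl, 42.3% of cells had no UMI of the list, and in LP1 35.4%, so the lowest part of these libraries consisted only of such cells. The highest part had 1466 CPM of the list in Ctrl and 1248 in LP1, under the 3932 of the lowest LP4 part. The ratios of the 3 libraries thus span different ranges of the list. *Ms4a4c* had 21.3 CPM in the highest part of Ctrl cells and 1.68 in the lowest, a ratio of 12.7 (log2 3.67, 95% interval 2.98 to 4.44). Of its 301 UMIs in Ctrl, 64.1% lay in the richest 1% of cells, which this interval does not take into account. In LP1 *Ms4a4c* had 23.1 and 1.40 CPM, a ratio of 16.5. With all cells lacking a UMI of the list as the low group, the log2 ratios were 3.58 and 4.12. The other members had ratios between 1.30 and 2.15 in these libraries. Cluster A made up 43.2% of the highest and 36.0% of the lowest part in Ctrl, and 39.8% and 33.3% in LP1. Within cluster A of Ctrl, *Ms4a4c* had 52.9 and 4.55 CPM, a ratio of 11.6. There *Ms4a6b* had a ratio of 1.67, beside 2.15 over all cells, and *Ms4a4a* 1.17, beside 1.53, with a log2 interval of -0.01 to 0.45 that held 0.

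**Figure D5:**
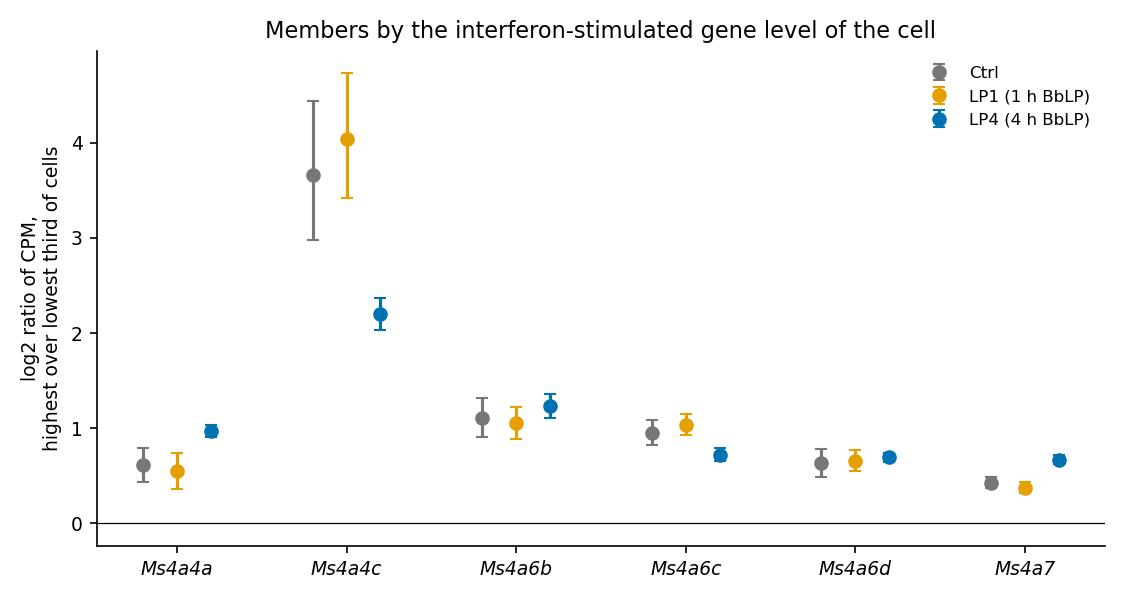
Log2 ratio of CPM between the highest and the lowest of 3 equal parts of the cells, ordered by the share of their UMIs of 9 interferon-stimulated genes, for each member and library, with 95% exact conditional binomial intervals. *Ms4a4c* lies at 3.67 in Ctrl, 4.04 after 1 hour and 2.20 after 4 hours, above the other members, which lie between 0.37 and 1.23. The level of the 9 genes in the parts differs between libraries, so these are not like contrasts.

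The genes most like each member were sought over the 21 groups made by 7 clusters in 3 libraries, after centring within each library, among 3642 genes of at least 50 CPM. These groups share cells' libraries and kinds, so the correlations are descriptions. *Isg15*, an interferon-induced ubiquitin-like protein, was most like *Ms4a4c* (Pearson's r 0.955), followed by *Sp140* and *Aif1*. *Csf1r*, the receptor of the growth factor CSF1, was most like *Ms4a4a* (0.979), followed by *Fcgrt* and *Vmp1*. Centring takes out differences between libraries, so this likeness is among clusters only. In LP4 over Ctrl, *Csf1r* and *Ms4a4a* had log2 ratios of -0.87 and 2.19, while *Isg15* and *Ms4a4c* had 3.35 and 2.41. *Pnrc1*, *Mxd1* and *Aif1* were most like *Ms4a6b* (0.955, 0.954 and 0.949), *Picalm*, *Trim30a* and *Clk1* most like *Ms4a6c*, and *Ndrg1*, *Spag9* and *Rap1b* most like *Ms4a7* (0.964, 0.950 and 0.950). *Ms4a6d* had the weakest best match, *Dtx3l* at 0.929, with *Ifi207* and *C1qa* next. *Ms4a* genes were left out of these rankings, and *Ms4a7* at 0.920 was more like *Ms4a6d* than *Ifi207* was. Among the members themselves, *Ms4a6b* and *Ms4a6c* were most alike (0.942), and *Ms4a4c* and *Ms4a6d* least (0.778).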

How the data were processed

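Single-cell RNA-seq was done on 3 libraries of BMDMs (Ctrl, labelled UI, LP1 and LP4). The authors ran Cell Ranger (version 7.1.0 in the submitters' processing notes) against mm10 and deposited its raw UMI counts, which are not normalized. Replicate wells were pooled before capture. The 6 members and all gene lists were chosen with earlier results of these data known.

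UMIs of kept cells were summed per library and scaled per 1000000 UMIs (CPM), and intervals were exact: Poisson for levels, conditional binomial for ratios, binomial for shares. A count of 0 was given a floor of 3 counts. No p-value was computed. At this depth a floor of 3 counts was 0.0841, 0.0572 and 0.0489 CPM in the 3 libraries.

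Clustering took 2000 variable genes from 5292 with at least 200 UMIs that differed under 1.5 times between libraries, 30 principal components, 20 neighbours and Leiden at a resolution of 0.5. Names needed 3 markers of a list among the 10 leading genes of at least 50 CPM. Doublets were not removed, and an alternative left out the 5% of cells with the highest Scrublet scores. Named genes were the members, all other *Ms4a* genes, and of each list the 2 highest and 2 lowest ratios of LP4 over Ctrl. *Tmem176a* and *Tmem176b* were named as distant relatives. Partner, interferon-stimulated, resident-type and monocyte lists had 9, 9, 10 and 10 genes in the tables. Alternatives were other cell filters and scalings, cell means, clusters A, B, C, D and F alone, other depths and other resolutions. The ratio and thinning steps were tested on simulated data. Python 3.11.15, scipy 1.17.1, scanpy 1.11.5, R 4.3.3 and edgeR 4.0.16 were used, with a seed of 20. Sequences were from RefSeq (GRCm38.p6) and transcripts from GENCODE vM21. The promoter windows of *Ms4a6b* and *Ms4a6c* are not reported here, for a reason unrelated to the values compared.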

Additional observations from a re-analysis of the deposited data

How the results depend on the processing

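The counts of members past 2-fold stayed at 4 higher and 0 lower in LP4 over Ctrl and in LP4 over LP1, and at 0 in LP1 over Ctrl, under every alternative tried for them but the limit of 1.5-fold. Under that limit 1 member was lower in LP1 than in Ctrl, *Ms4a4a*, and 5 were higher in LP4 in either comparison. Of 162 recomputed log2 ratios between libraries, 125 stayed inside the counting interval, 37 moved beyond it and 0 called ones changed sign. The log2 ratio of LP4 over Ctrl ranged from 2.08 to 2.39 for *Ms4a4a*, 2.21 to 2.62 for *Ms4a4c*, 1.07 to 1.40 for *Ms4a6c* and 2.47 to 2.75 for *Ms4a6d*, lowest with means over cells and highest with median-of-ratios scaling. The small LP1 ratios of *Ms4a6b* and *Ms4a6c* went from -0.03 and -0.06 to 0.05 and 0.02 under the latter, and that of *Ms4a4c* to -0.02 in clusters A, B, C, D and F alone. All 54 shares of cells moved with the depth of thinning. At resolutions of 0.3 and 0.8, 28 of 60 cluster ratios moved and 0 reversed, and at 0.8 *Ms4a4c* was past 2-fold in 8 of 9 clusters, with a lowest value of 0.98. The contrasts by interferon-stimulated genes within cluster A, within other clusters, and against cells lacking a UMI of the list were added after the data were seen. Under them 26 of 48 ratios moved and 0 reversed. No paired analysis was possible because each condition is 1 library. Depth limits *Ms4a4c* most, which had 301 UMIs in Ctrl.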

Other observations

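*Tmem176a* and *Tmem176b*, distant relatives of the family on another chromosome, stood at 6.47 and 10.2 CPM in Ctrl, 6.00 and 10.4 in LP1, and 5.77 and 9.19 in LP4. Their log2 ratios of LP4 over Ctrl were -0.17 (95% interval -0.41 to 0.08) and -0.15 (95% interval -0.34 to 0.04). *Tmem176b* was among the leading genes of the dendritic cell-like cluster G.

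The mitochondrial limit left out 273 LP4 cells that passed the other limits. Each of the 6 members had a lower CPM in them than in the kept LP4 cells. The share of all genes that were lower in these cells was not computed, so nothing particular to the members can be read from this. *Ms4a6b* had 26.6 CPM against 55.8 (log2 ratio -1.07, 95% interval -1.39 to -0.76) and *Ms4a6d* 288 against 385 (log2 ratio -0.42, 95% interval -0.52 to -0.33). *Ms4a7* had 242 CPM in the left-out cells and 364 in the kept ones.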
